A study of Mus musculus with 12 samples.

Results

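Among the putative noncoding transcripts measured in these mouse kidneys, 4826 had as their best database match a mouse cDNA with an AK number that the match text describes only as a noncoding transcript. The transcripts were taken by that text out of 42452 transcripts listed in all, which divide into 10852 with a database match and 31600 predictions. The choice also left out 30 transcripts by number, of which 23 carry such a match, and with these the class would hold 4849. Of these 23, 19 (82.6%) were called changed in obstructed wild-type kidney by the test described below, against 2.42% of all transcripts tested. The counts for the class therefore leave these calls out. Kidney RNA was compared in 6 groups of 2 libraries on the C57BL/6J background, of wild-type mice (WT) and mice without Smad3, labelled as knockout (KO). Each genotype was sampled as normal kidney, at day 5 of unilateral ureteral obstruction (UUO) of the left kidney, and at day 10 of anti-GBM glomerulonephritis. For the last model, immunisation with sheep IgG in complete Freund's adjuvant was followed by sheep antibody to mouse glomerular basement membrane (GBM) at 60 μg/g. The labels mention sham-operated controls for UUO and untreated controls for anti-GBM, and they do not say which of these the normal libraries are. How the knockout was made, the sex of each animal and any batch are not given, and nothing says whether the libraries of a group came from separate litters or runs, so the p-values measure the spread between these samples.

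Long noncoding RNAs are transcripts without a recognised protein-coding frame. Some act in the nucleus on chromatin, splicing or nuclear bodies, and for most no function is known. AK numbers come from the large-scale sequencing of full-length mouse cDNAs, where many clones were described as noncoding because no convincing reading frame was found in them. Smad3 is a transcription factor activated by TGF-β receptors, and this pathway is known for its part in scarring of the obstructed kidney.

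The tables give no coordinates and no sequence for these transcripts. Of the 3614 AK numbers in their matches, 0 were found in the gene name and RefSeq tables used here, so each transcript is called by its table number and its cDNA, and no gene, position or function is assigned to it. Of 39 names of known long noncoding RNAs, 0 appeared in the match texts of the class, and of 17 cell type markers of kidney, blood and connective tissue, 0 were in the tables. The labelled tissue could therefore not be checked by its markers. Smad3 and other protein-coding genes were not analysed here.

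The class is mixed in length and often has several transcripts on 1 cDNA. Lengths ran from 150 to 36291 bases with a median of 1082.5 bases, against 443 bases for predicted transcripts and 3164 bases for the 1666 transcripts matched to an AK cDNA with no description. The 4826 transcripts carried 3605 distinct cDNA matches. A cDNA of their own was matched by 2793 transcripts, and 2033 transcripts shared 812 cDNAs, up to 22 on AK150302. A structure model of the RFAM database was listed for 886 of them (18.4%), against 7.37% of predicted transcripts. The model of the signal recognition particle RNA, listed as SRP_euk_arch, was the most frequent with 332 transcripts, followed by MIR821 with 39 and snoU90 with 32. Several of the models describe RNAs of bacteria, such as tmRNA and CsrC, so the model names were taken as entries of the tables and not as identities.

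These transcripts were listed more widely than predicted ones but mostly at low levels. Reads were found in all 12 libraries for 2100 of them (43.5%), against 13.8% of predicted transcripts and 60.9% of those matched to a cDNA with no description, and 104 were listed in 1 library only. The mean RPKM (reads scaled for transcript length and for the reads of the table) over 12 libraries had a median of 2.25 and a highest value of 2165. The 10 transcripts with most reads held 12.1% of the reads of the class and the first 100 held 43.4%. Totals per table ran from 4595261 to 7342937 reads, and 2845 to 4412 members of the class were listed per library. The first libraries of WT UUO, KO UUO and KO anti-GBM stood apart: the length that reads covered, divided by what random placement of as many reads would cover, was 0.244 to 0.384 in them and 0.565 to 0.853 in the other 9. They are called the libraries of low breadth.

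**Figure D1:**
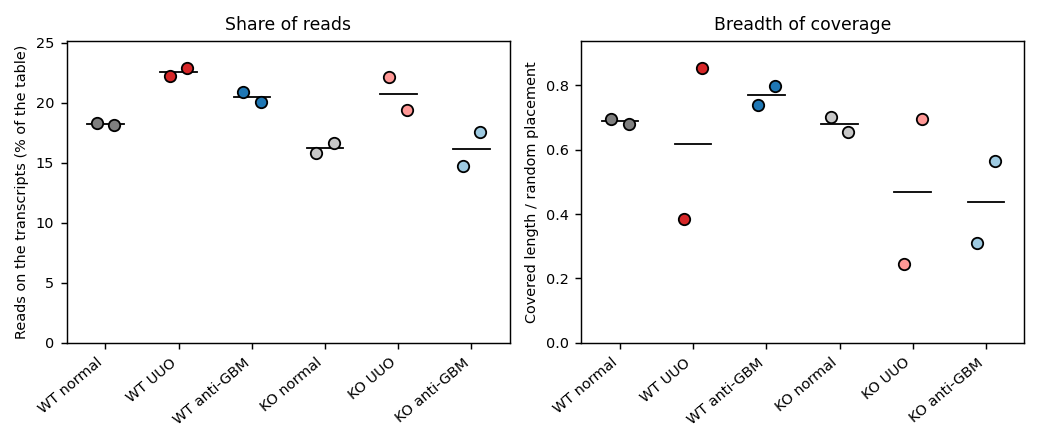
Left, the share of each table's reads that fell on the transcripts matched to a cDNA described as noncoding, in percent; right, the length covered divided by what random placement of the reads would cover, for the same transcripts. Points are libraries and bars are group means of 2; the shares run from 14.7% to 22.9%, and 3 libraries lie at or below a ratio of 0.384.

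Averaged over the 3 states, the share of reads on the class was lower in KO than in WT kidney. It was 18.3% ± 0.11 (SD, n = 2) in normal, 22.6% ± 0.446 in obstructed and 20.5% ± 0.578 in anti-GBM kidneys of WT mice. In KO mice it was 16.2% ± 0.547, 20.8% ± 1.93 and 16.2% ± 2.04. The average was 17.7% in KO and 20.4% in WT, a difference of -2.73 percentage points. A two-sided exact permutation of genotype within states gave p = 0.00926, the smallest that its 216 arrangements allow. The call was lost when the 2 most abundant transcripts of the tables, ncRNA_aligned_3554 and ncRNA_aligned_7824, were taken out of the totals (-1.85 percentage points, exact permutation p = 0.0648). In that case KO was no longer lower in obstructed kidney, with 28.5% ± 1.45 (SD, n = 2) in KO and 28.1% ± 1.14 in WT. In the 9 libraries without those of low breadth, an alternative added after seeing the data, the difference was -2.80 percentage points (exact permutation p = 0.0278). Those 2 transcripts, which are not members, held between 18.5% and 40% of a library's reads.

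By RPKM the 4 most abundant members were shorter than the median member. Transcript ncRNA_aligned_2401 (AK138382, 584 bases) led with a mean of 2165 ± 936 RPKM (SD over 12 libraries), between 864 and 3793 RPKM. It was followed by ncRNA_aligned_6718 (AK044091, 514 bases) at 1693 ± 1214 RPKM, ncRNA_aligned_2303 (AK045832, 477 bases) at 1619 ± 755 RPKM and ncRNA_aligned_2309 (AK011089, 501 bases) at 1502 ± 968 RPKM. The spread over libraries is as wide as the gaps between these neighbours. Next came ncRNA_aligned_6240 (AK038305, 5407 bases, model snR37), the longest of the first 10, with a mean of 1205 ± 475 RPKM, then ncRNA_aligned_2300 (AK007267) with 1093 and ncRNA_aligned_4877 (AK039762) with 1053 RPKM. The last 3 of the 10 were ncRNA_aligned_11884 (AK134078, 172 bases) with 946, ncRNA_aligned_3774 (AK034073) with 911 and ncRNA_aligned_2168 (AK016310) with 749 RPKM. Transcript ncRNA_aligned_2168 was high in the libraries of low breadth, at 1628 RPKM in KO anti-GBM 1, 1757 RPKM in KO UUO 1 and 1948 RPKM in WT UUO 1, and stood at 242 to 726 RPKM in the other 9.

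With the scaling used here, some abundant members hardly moved. Levels for comparison between libraries are given as CPM, counts scaled to a common library size by the TMM method. Of 450 members with a mean of 100 CPM or more, the median ratio of the highest to the lowest library was 3.36. The steadiest was ncRNA_aligned_56 (AK153666, 7453 bases), between 84.9 and 120 CPM over the 12 libraries, a ratio of 1.42. Transcripts ncRNA_aligned_1368 (AK077883, 187 to 265 CPM) and ncRNA_aligned_641 (AK017270, 88.6 to 137 CPM) had ratios of 1.42 and 1.55, and ncRNA_aligned_4442 and ncRNA_aligned_349 ratios of 1.55 and 1.56. The steadiness rests on TMM scaling. By RPKM, ncRNA_aligned_56 ran from 8.78 to 26.2, ncRNA_aligned_1368 from 16.3 to 34.2 and ncRNA_aligned_641 from 9.36 to 24. Among the same 450 the libraries of low breadth lay together above the other 9 for 37 transcripts and below them for 49, against 74 and 201 of all 1337 transcripts at that level.

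Obstruction in WT kidney changed these transcripts in both directions, and with TMM scaling falls were the more frequent. Of 3438 members with enough reads to be tested, 37 were called higher and 108 lower in WT UUO than in WT normal (edgeR quasi-likelihood test, adjusted p under 0.05 over all 24816 transcripts tested). That is 4.22% of the members tested against 2.42% of all transcripts tested, of which 0.681% were higher and 1.74% lower. At an unadjusted p under 0.05 there were 679 members, with 15.8% of all transcripts. The split depends on the scaling: library size alone gave 220 higher and 29 lower. The median log2 fold change was 0.00 over the members and 0.49 over all. The other 1388 members had too few reads to be tested, with a highest mean of 3.45 CPM. Since the tissue is bulk kidney, fewer cells of a type and less RNA per cell cannot be told apart in any of these values.

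**Figure D2:**
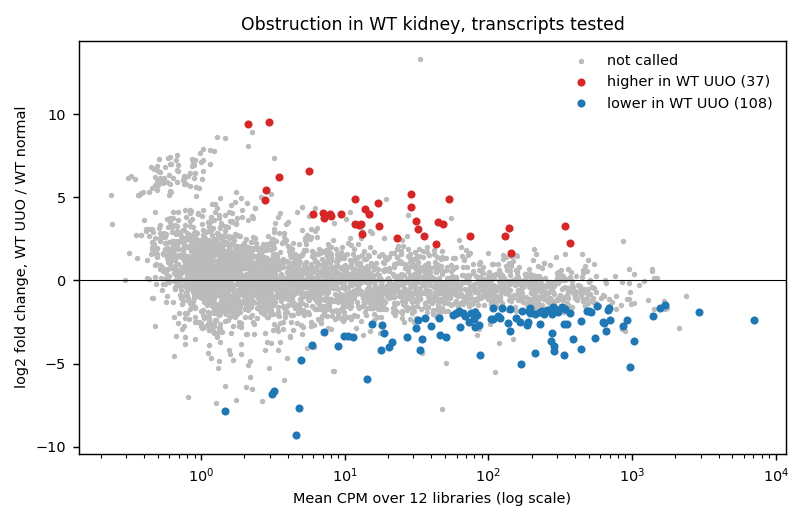
Each point is 1 of the 3438 members tested; the horizontal axis is its mean CPM over 12 libraries (log scale) and the vertical axis its log2 fold change in WT UUO against WT normal. Red points are the 37 called higher and blue points the 108 called lower; the blue points reach much higher CPM values than most red ones.

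The share of calls rose with the level of a transcript, inside the class and outside it. Among members with a mean of 100 CPM or more, 15.3% were called, against 15.1% of tested transcripts outside the class. Between 10 and 100 CPM the shares were 6.59% and 8.48%, between 1 and 10 CPM 1.31% and 1.13%, and below 1 CPM 0 of 490 members were called. With TMM scaling the direction followed the level too: above 100 CPM 5 members were higher and 64 lower, and between 1 and 10 CPM 12 were higher and 10 lower. These level classes, like the length and model classes below, were formed after the calls were seen and describe the calls without a test.

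Transcript ncRNA_aligned_3314 (AK089314, 3679 bases) gave the firmest rise. It stood at 5.34 and 1.52 CPM in the WT normal libraries and at 80.3 and 171 CPM in WT UUO, with 84.9% and 99.8% of its length covered there. The log2 fold change was 5.19 ± 0.72 (SE, edgeR adjusted p = 0.000298), and the call held in all 12 fits that left out 1 library. Its KO values followed the same order, 2.23 and 2.95 CPM in KO normal and 18.5 and 35.6 CPM in KO UUO, and that difference did not pass (log2 3.38 ± 0.68, edgeR adjusted p = 0.12). In anti-GBM kidneys it stood at 9.52 and 13.5 CPM in WT and at 3.61 and 3.74 CPM in KO.

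Other rises were of like size. Transcript ncRNA_aligned_11625 (AK161725, 4950 bases) went from 1.92 and 1.30 CPM to 37.7 and 60.4 CPM (log2 4.91 ± 0.77), while its coverage went from 13.8% and 9.72% to 69.1% and 97.5% of its length. Transcript ncRNA_aligned_3458 (AK143011, 4016 bases) went from 4.70 and 6.50 to 103 and 226 CPM (log2 4.87 ± 0.87). Transcript ncRNA_aligned_280 (AK008799, 6210 bases) went from 3.42 and 4.99 to 61.8 and 119 CPM (log2 4.42 ± 0.78). Reads on ncRNA_aligned_280 covered only 18.9% and 26.4% of its length in WT UUO, so they fell on a limited stretch of it. Transcript ncRNA_aligned_2375 (AK155531, 2975 bases) stood at 37.5 and 35.1 CPM in WT UUO against 2.35 and 1.30 CPM in WT normal (log2 4.30 ± 0.75). The largest fold of the 12 named rises, 6.56 ± 1.43, belonged to ncRNA_aligned_10642 (AK165307, 799 bases), at 0.214 and 0.217 CPM in WT normal and 35.8 and 8.48 CPM in WT UUO. The remaining 6 named rises, ncRNA_aligned_6634, ncRNA_aligned_6594, ncRNA_aligned_6712, ncRNA_aligned_5221, ncRNA_aligned_6708 and ncRNA_aligned_8046, had group means of up to 73.2 CPM in WT UUO and of 1.18 to 2.90 CPM in WT normal. Of the 12 calls, that of ncRNA_aligned_3314 held in all 12 fits that left out 1 library, and the others were lost without 1 or both WT normal libraries. Those of ncRNA_aligned_10642, ncRNA_aligned_6594, ncRNA_aligned_6712 and ncRNA_aligned_5221 were also lost without 1 or both WT UUO libraries. The calls of ncRNA_aligned_6594 and ncRNA_aligned_6712 were lost without either WT anti-GBM library too, and that of ncRNA_aligned_6712 without either KO normal library.

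A few members had 0 or hardly any reads in normal WT kidney, and these were picked out after their values were seen. Transcript ncRNA_aligned_11960 (AK152333, 658 bases) had 66 and 188 reads in the WT UUO libraries and 0 in the other 10. Against a floor of 3 counts over WT normal it was at least 39.7-fold higher by group mean and 30.4-fold by the lower library. Of 6 members listed in both WT UUO libraries and in no other, it was the 1 with 10 reads or more in each. Those 6 were 0.124% of members, beside 0.504% of all transcripts listed in this way. Transcripts ncRNA_aligned_957 and ncRNA_aligned_956, 4777 and 4906 bases long, both match AK019167. In WT UUO ncRNA_aligned_957 had 146 and 76 reads and in WT normal 0, at least 43.6-fold higher by group mean and 19.8-fold by the lower library, and ncRNA_aligned_956 had 192 and 81 reads against 0 and 2. In WT UUO the reads covered only 15.0% and 16.6% of the length of ncRNA_aligned_957 and 19.7% and 28.1% of that of ncRNA_aligned_956. In KO UUO these transcripts had 26 and 9, and 30 and 8 reads, and in WT anti-GBM 4 and 15, and 4 and 2 reads. The call of ncRNA_aligned_11960 was not made by DESeq2 (adjusted p = 0.342).

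The same direction with a wide spread gave no call. Transcript ncRNA_aligned_7949 (AK089286, 2575 bases) had 0 reads in both WT normal libraries and 361 and 3887 reads in WT UUO, at least 589-fold higher by group mean and 167-fold by the lower library, and did not pass (edgeR adjusted p = 0.151). Its KO UUO libraries had 0 and 37 reads and its KO normal libraries 6 and 35. The largest fall without a call was that of ncRNA_aligned_2995 (AK080180, 2189 bases), at 125 and 49.6 CPM in WT normal and 0 and 0.672 CPM in WT UUO (edgeR adjusted p = 0.246). In KO it stood at 60.3 and 199 CPM in normal and at 0 and 5.02 CPM in obstructed kidney. Its anti-GBM values were low in WT, at 1.95 and 5.01 CPM, and far apart in KO, at 3.09 and 118 CPM.

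**Figure D3:**
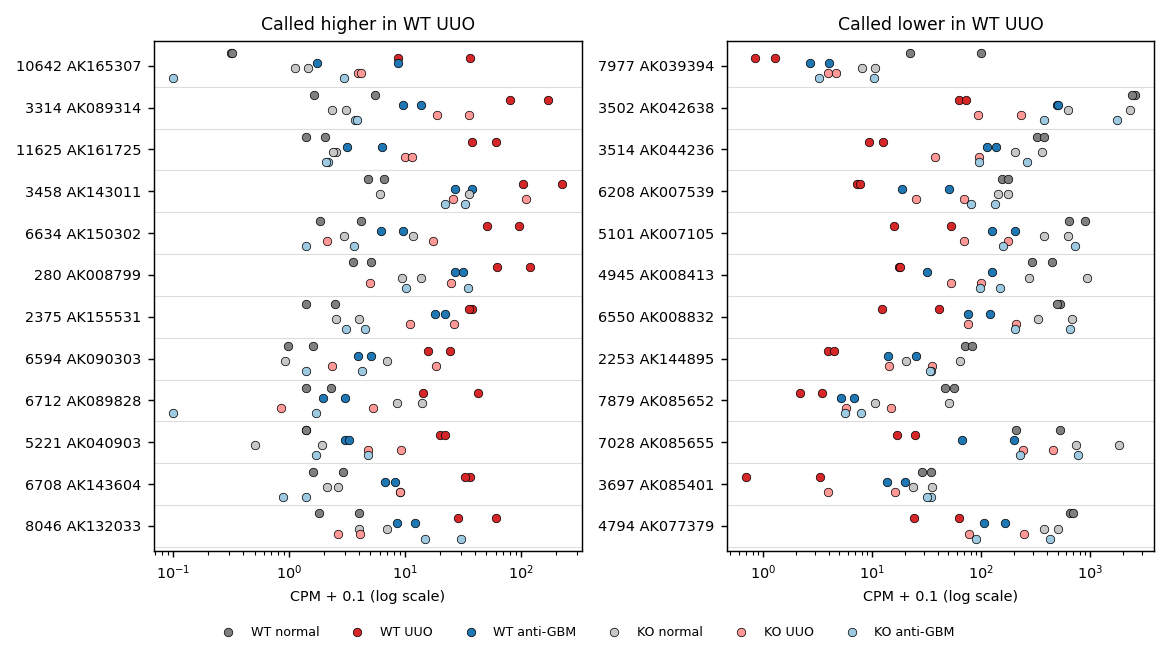
CPM plus 0.1 on a log axis in every library of the 12 rises (left) and 12 falls (right) named by the rule for WT UUO, labelled by table number and cDNA, with colours for the 6 groups. Within each row the dark red WT UUO points lie apart from the dark grey WT normal points, as the naming rule required. For all 12 falls the pale red KO UUO points lie above those of WT UUO, an order favoured by picking falls with low WT UUO values.

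Falls reached abundant transcripts. Transcript ncRNA_aligned_3514 (AK044236, 5584 bases) went from 327 and 377 CPM in WT normal to 9.24 and 12.4 CPM in WT UUO, log2 -5.02 ± 0.60 (edgeR adjusted p = 7.41e-05). Its coverage fell from 97.6% and 97.7% of its length to 21.6% and 67.6%. In KO it stood at 360 and 202 CPM in normal and 37.9 and 96.0 CPM in obstructed kidney (log2 -2.07 ± 0.53, edgeR adjusted p = 0.247), and its groups did not overlap there either. Transcript ncRNA_aligned_6208 (AK007539, 3642 bases) went from 156 and 177 to 7.15 and 7.56 CPM (log2 -4.50 ± 0.61). Its reads lay on a short part of it, 18.8% and 15.5% of its length in WT normal. Transcript ncRNA_aligned_6550 (AK008832, 1320 bases) went from 529 and 492 to 12.1 and 40.8 CPM (log2 -4.27 ± 0.75), and ncRNA_aligned_2253 (AK144895, 2126 bases) from 71.0 and 82.0 to 3.87 and 4.37 CPM (log2 -4.21 ± 0.67). The calls of these 4 held in all 12 fits that left out 1 library.

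The other 8 named falls had WT normal means of 31.4 to 2480 CPM and WT UUO means of 0.96 to 67.4 CPM. The most abundant was ncRNA_aligned_3502 (AK042638), at 2565 and 2394 CPM in WT normal and 62.4 and 72.5 CPM in WT UUO, whose call was lost without either WT UUO library. Transcript ncRNA_aligned_5101 (AK007105, 538 bases) went from 902 and 637 to 15.8 and 52.3 CPM, and ncRNA_aligned_4945 (AK008413, 2746 bases) from 294 and 442 to 17.4 and 17.7 CPM. The call of ncRNA_aligned_4945 was not made in the 9 libraries without those of low breadth (edgeR adjusted p = 0.223), nor was that of ncRNA_aligned_7028 (AK085655, edgeR adjusted p = 0.201). The others of the 24 named rises and falls passed there. The transcripts ncRNA_aligned_7977, ncRNA_aligned_7879, ncRNA_aligned_3697 and ncRNA_aligned_4794 fell with log2 fold changes between -5.93 and -3.96. Of the 10 most abundant members by RPKM, 4 were called lower: ncRNA_aligned_6718 (log2 -3.65), ncRNA_aligned_2300 (-3.01), ncRNA_aligned_6240 (-2.37) and ncRNA_aligned_4877 (-1.88).

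Transcript ncRNA_aligned_6697 (AK054201, 1342 bases, model SRP_euk_arch) had no read in obstructed WT kidney. It had 40 and 70 reads in the WT normal libraries, which covered 88.5% and 92.2% of its length, and 0 reads in both WT UUO libraries. With a floor of 3 counts over WT UUO, it was at least 73.6-fold lower by group mean and 53.1-fold by the lower WT normal library. All other libraries had reads on it, from 6 to 98. The call held in all 12 fits that left out 1 library, with a highest edgeR adjusted p of 0.0277.

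How many members were called depended on the fit, while none of the 24 named transcripts changed direction in any fit tried. In the fits without 1 library given next, the share called of all transcripts moved the same way as the count of members. Without WT normal 1 or WT normal 2 the count of 145 became 27 and 28, without WT UUO 1 it became 43, and without KO UUO 1 or KO UUO 2 it became 268 and 272. The 9 libraries without those of low breadth gave 522 (173 higher and 349 lower), with 10.8% of all transcripts called, and held 143 of the 145; there WT UUO, KO UUO and KO anti-GBM have 1 library each, assumed to vary like the other groups. DESeq2's own test gave 281 (7.26% of all transcripts it gave an adjusted p, the base of its percentages here) and held 142. The split between rises and falls rests on the scaling: it was 60 higher and 86 lower with DESeq2 size factors, and library size alone moved the median log2 fold change of all transcripts from 0.49 to 1.55. Only 17 calls held in all 12 fits that left out 1 library, 1 rise and 16 falls.

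Members on 1 cDNA moved partly together. For 382 cDNAs with exactly a pair of tested members, the log2 fold changes in WT UUO had the same sign in 264, with a median difference of 0.78 within pairs against a median absolute change of 1.00 over the members. The correlation within these pairs was 0.52, a description over pairs of the same 4 libraries for which the tables do not say how reads were assigned between transcripts of 1 cDNA. The 145 called members lay on 138 cDNAs. Transcripts ncRNA_aligned_2722 and ncRNA_aligned_2723, both on AK087688 and both with the model SCARNA13, fell together, the former from 99.2 and 99.9 to 7.45 and 11.6 CPM and the latter from 47.7 and 52.0 to 2.68 and 4.87 CPM. In KO kidneys ncRNA_aligned_2722 stood at 41.8 and 56.3 CPM in normal and 56.0 and 40.5 CPM in obstructed kidney, which overlap. On AK143285 the called members went opposite ways: ncRNA_aligned_1254 rose from 39.6 and 40.5 to 96.7 and 159 CPM (edgeR adjusted p = 0.0497), and ncRNA_aligned_6530 fell from 138 and 120 to 24.9 and 26.3 CPM (edgeR adjusted p = 0.0139).

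The cDNA with most members, AK150302, was matched by 22 transcripts of 725 to 6977 bases, all of them tested. Their mean levels ran from 0.553 to 104 RPKM, and their log2 fold changes in WT UUO from -2.85 (ncRNA_aligned_7753, called lower) to 4.65 (ncRNA_aligned_6634, called higher), with a median of -0.92 and 8 above 0. The most abundant of them, ncRNA_aligned_31 and ncRNA_aligned_3638, each with a mean of 104 RPKM, had log2 fold changes of 0.17 and -1.52 that did not pass.

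A structure model or a greater length went with more calls and with higher levels. Of tested members with a model 41 of 749 were called in WT UUO (5.47%), against 104 of 2689 without (3.87%), and their median levels were 16.4 and 2.97 CPM. With the model SRP_euk_arch 11 of 279 were called, 4 higher and 7 lower. By quartile of length the share called was 1.63%, 2.44%, 6.98% and 5.81% from the shortest to the longest, with median levels of 1.27, 2.06, 13.9 and 41.3 CPM.

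In KO kidneys obstruction gave 0 calls among the 3438 members (background 0.0121% of all transcripts tested, edgeR quasi-likelihood test), with 237 at an unadjusted p under 0.05 (5.98% of all) and 27 called by DESeq2 (1% of all). The 9 libraries without those of low breadth gave 46, with 0.851% of all. The members called in WT were then read in the KO libraries, which are not in the WT contrast. This was chosen after the WT calls were seen. Scaling and spread were fitted over all 12 libraries, so the KO values had a part in the WT calls and the reading is not independent. The shares of all transcripts given beside it are not matched for level. Of the 37 called higher in WT UUO, 31 had a KO log2 fold change above 0, with a median of 1.42, and in 23 (62.2%) both KO UUO values lay above both KO normal values, against 16.7% of all transcripts tested. Of the 108 called lower, 98 were below 0 with a median of -0.86, and in 67 (62.0%) both KO UUO values lay below both KO normal values, against 19.3% of all. The median over all tested members was -0.09. With library size alone the median of the 108 was -0.24 and that of the 37 was 1.89.

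**Figure D4:**
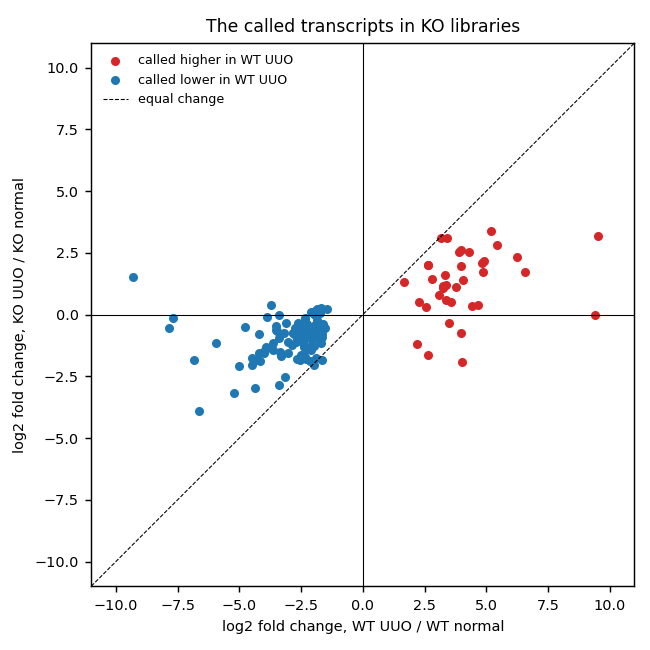
Log2 fold change of UUO against normal in WT (horizontal) and in KO (vertical) for the 37 members called higher (red) and 108 called lower (blue) in WT UUO; the dashed line marks equal change. Most points keep their side of 0 in KO and lie nearer to 0 there than in WT, where the list was chosen.

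The median changes in KO were smaller than those in WT, where the members had been selected by their change. The members called lower had a median level of 234 CPM in normal and 39.2 CPM in obstructed kidney of WT mice, and of 204 and 92.5 CPM in the KO groups. Those called higher had 3.23 and 46.7 CPM in WT and 6.18 and 14.5 CPM in KO. For all 12 named falls both KO UUO values lay above both WT UUO values, against 11.3% of all transcripts tested. For 10 of the 12 named rises they lay below, against 19.4% of all. Both lists were picked by large changes in these same WT UUO values, so the selection itself favours this order. The shares of all transcripts are unselected and give no measure of a genotype difference here. The difference of the responses was tested by the interaction of genotype and obstruction, and 0 of these 24 passed, with edgeR adjusted p from 0.0917 to 1. Since the list was chosen for large WT changes, its smaller KO changes do not show that the class responds differently by genotype.

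The interaction called 2 members, 0.0582% of those tested and near the 0.0604% of all transcripts, both with a response that was more negative in WT. Transcript ncRNA_aligned_3385 (AK050225, 8512 bases) had 820 and 958 CPM in WT normal and 92.7 and 62.7 CPM in WT UUO, a fall of log2 -3.52 ± 0.45, and 412 and 507 CPM in KO normal and 310 and 354 CPM in KO UUO (log2 -0.47 ± 0.41). Its response differed by 3.05 ± 0.58 between the genotypes (edgeR adjusted p = 0.0461). For ncRNA_aligned_6697, at 0 reads in WT UUO as given above, KO UUO held 10.4 and 4.68 CPM and KO normal 1.22 and 4.09 CPM (edgeR adjusted p = 0.0221). Each of these calls was lost without any 1 of the 6 libraries of WT normal, WT UUO or KO normal, and both were made by DESeq2 and in the 9 libraries of higher breadth. DESeq2 called 26 members in this interaction (1.3% of all), and 225 had an unadjusted p under 0.05 (5.63% of all).

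Glomerulonephritis gave 0 calls in WT (background 0.0201%, edgeR quasi-likelihood test), with 275 members at an unadjusted p under 0.05 (6.56% of all). This count rests on the fit: DESeq2 called 45 (2.14% of all), the 9 libraries without those of low breadth 274 (6.53% of all), and a fit of only the WT anti-GBM and WT normal libraries 372 (9.2% of all), while the fits without 1 library gave 0 to 15. In DESeq2, the 9 libraries and the fit of only these groups alike, 26 members were called higher and 15 lower, 1.19% of those tested against 0.681% of all transcripts. Of these, chosen after their values were seen, ncRNA_aligned_2108 (AK036151, 7430 bases) stood at 5.77 and 6.07 CPM in WT normal and 63.2 and 36.7 CPM in WT anti-GBM (log2 3.07 ± 0.59, edgeR adjusted p = 0.0645). Transcript ncRNA_aligned_2375 stood at 2.35 and 1.30 against 22.0 and 17.9 CPM (log2 3.43 ± 0.73, edgeR adjusted p = 0.11), and ncRNA_aligned_10234 (AK145164, 5340 bases) at 0.214 and 2.38 against 22.0 and 21.0 CPM. On the lower side ncRNA_aligned_7879 stood at 55.8 and 46.0 CPM in WT normal and at 5.12 and 6.75 CPM in WT anti-GBM, and ncRNA_aligned_2377 (AK140221, 2535 bases) at 21.8 and 16 against 1.59 and 2.07 CPM. Their groups did not overlap, and none of the 5 passed the edgeR test of all 12 libraries. Transcript ncRNA_aligned_9994 (AK050820, 505 bases) had 12 and 19 reads in WT anti-GBM and 0 in the other 10 libraries.

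In KO kidneys 2 members were called higher in glomerulonephritis, 0.0582% of those tested and near the 0.0524% of all transcripts tested (0.0484% for higher calls). At an unadjusted p under 0.05 there were 297 members (8.75% of all), and DESeq2 called 26 (0.796% of all). Transcript ncRNA_aligned_4112 (AK028107, 1604 bases) had 16.9 and 16.1 CPM in KO normal and 171 and 151 CPM in KO anti-GBM, log2 3.29 ± 0.55 (edgeR adjusted p = 0.00961). Transcript ncRNA_aligned_4116 (AK157581, 10812 bases) had 260 and 254 against 2396 and 1762 CPM, log2 3.01 ± 0.50 (edgeR adjusted p = 0.00934). In KO anti-GBM, reads covered 39.5% and 40.8% of the length of ncRNA_aligned_4112 and 33.2% and 31.5% of that of ncRNA_aligned_4116. In WT normal kidney both stood higher than in KO normal, at 71.2 and 61.8 and at 770 and 676 CPM, without a call. In WT anti-GBM they stood at 228 and 93.9 and at 2389 and 980 CPM. These rises over WT normal did not pass (log2 1.28 ± 0.51 and 1.22 ± 0.47). In KO UUO they stood at 29.2 and 45.7 and at 320 and 631 CPM. Both calls were lost without KO anti-GBM 1, a library of low breadth, and without either KO normal library. They were kept in the 9 libraries without those of low breadth, where KO anti-GBM has 1 library.

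Between the genotypes 0 members were called in any of the 3 states by the edgeR quasi-likelihood test (background 0.0161% in normal, 0.00806% in UUO and 0.0201% in anti-GBM). At an unadjusted p under 0.05 there were 93, 236 and 442 members, of 3438 each, against 2.22%, 6.08% and 14.8% of all transcripts. DESeq2 called 5, 28 and 42 members, against 0.435%, 0.687% and 2.32% of all. The 9 libraries without those of low breadth gave 32, 39 and 260, against 0.742%, 0.476% and 7% of all, and fits of only the groups compared 44, 2 and 41, against 0.894%, 0.0242% and 1.25%. The counts of 0 between the genotypes therefore rest on the fit. In normal kidney the median log2 difference over the members was -0.00. The interaction of genotype and glomerulonephritis also gave 0 calls (background 0.0161%), with 306 at an unadjusted p under 0.05 (10% of all) and 11 by DESeq2 (0.726% of all). With 2 libraries against 2 an exact permutation test of a single transcript cannot give a p below 0.333, so every call rests on the spread pooled over transcripts and groups.

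**Figure D5:**
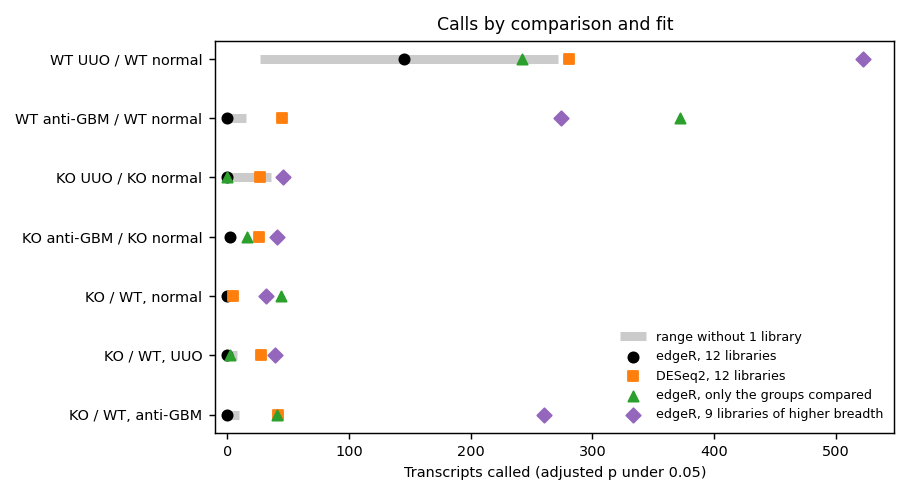
Number of members called (adjusted p under 0.05) in the 7 comparisons of 2 groups, by fit: edgeR with 12 libraries (circles), DESeq2 (squares), edgeR with only the groups compared (triangles) and edgeR without the 3 libraries of low breadth (diamonds); grey bars span the fits without 1 library. WT UUO has the most calls in every fit but that of only the groups compared, where WT anti-GBM has 372 against 242.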

How the data were processed

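Kidney RNA was sequenced after ribosomal RNA depletion and size selection above 150 bases, per the labels' protocols, and the submitters' processing notes name Bowtie 0.12.7 and the mm9 build. Per the file headers, each deposited table gives counts of uniquely mapped reads per transcript, RPKM, coverage in percent of the length, and depth, a signal of mean coverage that was not used for any result. RPKM was recomputed from the deposited counts and lengths and matched. Transcript assembly, strand and read assignment are not given in the sources used here.

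Groups were taken from the source names in the labels, and libraries are numbered in accession order, which pairs nothing. The 12 tables were joined, with 0 reads where a transcript was not listed. The edgeR 4.0.16 quasi-likelihood test (R 4.3.3, TMM scaling, filterByExpr, robust fit of 6 group means) was run on 24816 transcripts for 9 contrasts with Benjamini-Hochberg adjustment over all of them. DESeq2 1.42.0, other scalings, no filter, fewer libraries and single libraries left out were alternatives. Tested on simulated data for WT UUO against WT normal with 20353 transcripts, the procedure called 30 of 90 tested transcripts changed by a log2 of 4 and 2 of 88 changed by a log2 of 2. It also called 6 transcripts that were left unchanged in the simulation. With 4595261 to 7342937 reads a table, 1 read was worth 0.0840 to 0.258 CPM, and a floor of 3 counts covers counting error only.

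The members and lists were chosen with earlier results of these data known. Transcripts named were the called ones that averaged at least 10 CPM and had groups that do not overlap, largest change first, up to 12 each way in WT UUO and 5 elsewhere; the 10 of highest RPKM; the 5 steadiest of 100 CPM or more; the cDNA with most members; and known long noncoding RNAs by name. Others are said to be chosen after their values were seen.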

Additional observations from a re-analysis of the deposited data

Results flagged for a closer look

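The response to obstruction differed between the genotypes for 2 transcripts by the interaction term. They were 0.0582% of the members tested, near the 0.0604% of all transcripts called by it. For ncRNA_aligned_3385 the log2 response in KO minus that in WT was 3.05 (edgeR adjusted p = 0.0461): the fall from 820 and 958 to 92.7 and 62.7 CPM in WT stood against 412 and 507 and then 310 and 354 CPM in KO. For ncRNA_aligned_6697 the fitted difference was 10.80 (edgeR adjusted p = 0.0221), a value that depends on the prior count because both WT UUO libraries held 0 reads. The cause of either difference was not tested.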

How the results depend on the processing

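The counts below follow 1 order: WT UUO, WT anti-GBM, KO UUO and KO anti-GBM, each against its normal group, then KO against WT in normal, UUO and anti-GBM kidney, then the interactions of genotype with UUO and with anti-GBM. The 12 libraries gave 145, 0, 0, 2, 0, 0, 0, 2 and 0 members called. The shares of all transcripts in this fit and in DESeq2's test are given with each comparison above. The 9 libraries of higher breadth gave 522, 274, 46, 41, 32, 39, 260, 97 and 145. DESeq2's test gave 281, 45, 27, 26, 5, 28, 42, 26 and 11. Library size alone gave 249, 27, 20, 3, 0, 9, 38, 8 and 6. Of all transcripts it called 4.12%, 0.314%, 0.254%, 0.0725%, 0.0363%, 0.0967%, 0.862%, 0.113% and 0.129%. DESeq2 size factors gave 146, 2, 0, 2, 0, 2, 2, 3 and 1. Of all transcripts they called 2.34%, 0.0484%, 0.00806%, 0.0604%, 0.0242%, 0.0363%, 0.121%, 0.0725% and 0.0524%. No filter on low counts gave 235, 36, 23, 24, 10, 32, 26, 35 and 10. The shares of all transcripts there were 2.46%, 0.29%, 0.25%, 0.198%, 0.132%, 0.214%, 0.431%, 0.313% and 0.184%. Only the groups compared gave 242, 372, 0, 16, 44, 2, 41, 2 and 11. The shares of all transcripts there were 4.47%, 9.2%, 0%, 0.243%, 0.894%, 0.0242%, 1.25%, 0.0766% and 0.412%. With the 23 left-out transcripts put back the counts were 164, 2, 1, 6, 2, 1, 0, 9 and 0. Leaving out 1 library gave 27 to 272, 0 to 15, 0 to 36, 0 to 3, 0 to 0, 0 to 8, 0 to 10, 0 to 10 and 0 to 3. These fits kept the 24816 transcripts fixed. Redoing the filter in each fit, an alternative added after seeing the data, gave 573, 327, 69, 67, 52, 65, 299, 130 and 195 in the 9 libraries, 157, 371, 0, 0, 20, 0, 0, 0 and 3 with only the groups compared, and 90 to 406, 0 to 67, 11 to 237, 8 to 98, 2 to 19, 18 to 70, 4 to 77, 8 to 61 and 2 to 52 without 1 library. The counts of 0 therefore hold for the fit of 12 libraries and not in general, and the cause was not tested. Counts printed in this section without a share of all transcripts describe the fit and are no result about the class. The genotype difference in the share of reads was -1.85 percentage points without the 2 most abundant transcripts (exact permutation p = 0.0648) and -3.21 to -2.24 without 1 library. No paired analysis was possible because the labels give no replicate numbers, and the numbers printed here follow accession order and only name libraries.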
